A study of Homo sapiens with 60 samples.

Results

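The genes of the thioredoxin, peroxiredoxin and superoxide defence systems described here were found by their symbols in the deposited gene table: TXN, TXNIP, SRXN1, PRDX1, PRDX2, PRDX6, GLRX, SOD1, SOD2 and CAT. Each symbol matched 1 row of the 62703 genes in the table, 10 genes in all. Of these 10 genes, 9 had counts and were tested, and SRXN1 had a count of 0 in all 60 libraries.

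RNA was measured by 3′ end sequencing in 1321N1 cells, a human astrocytoma line. The cells were left non-treated or received arsenic at 2.55 µM as sodium metaarsenite, cadmium chloride at 2.3 µM, or mercury chloride at 20 µM. RNA was taken at 5 times, from 1.5 and 3 h over 6 and 12 h up to 24 h, with 3 libraries for each of the 20 combinations of treatment and time. The question put to these libraries was how the transcriptome of the cells responds to each metal over the first day. Each group rests on 1 cell line and 1 dose per metal, and the labels call the 3 libraries of a group technical replicates, so that the p-values measure the spread between these libraries and may not cover the spread between independent cultures.

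Thioredoxin, encoded by TXN, is a small protein that reduces disulfides in other proteins, and thioredoxin reductase returns it to its reduced form with electrons from NADPH. Peroxiredoxins remove hydrogen peroxide with a reactive cysteine, which thioredoxin reduces for PRDX1 and PRDX2 and glutathione for PRDX6, and sulfiredoxin, encoded by SRXN1, repairs peroxiredoxins that have been over-oxidised. Superoxide dismutases turn superoxide into hydrogen peroxide in the cytosol (SOD1) and in mitochondria (SOD2), catalase (CAT) breaks hydrogen peroxide down in peroxisomes, glutaredoxin (GLRX) removes glutathione from protein cysteines, and TXNIP binds thioredoxin and restrains glucose uptake. Arsenic, cadmium and mercury all bind the thiols on which most of these proteins depend.

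The libraries held between 2215276 and 4404609 counts, and levels are given as CPM, the counts relative to library size, with library sizes scaled by the trimmed mean of M-values (TMM), whose factors lay between 0.934 and 1.03. A floor of 3 counts, the limit that a count of 0 allows, corresponded to between 0.682 and 1.36 CPM, a limit that covers counting error only. Pairs of libraries of the same group correlated between 0.958 and 0.978 on the log2 scale, and all of the 60 pairs differed by more than the sampling noise. The third cadmium library at 24 h stood apart: of the 7253 genes that averaged 50 counts or more, 182 differed more than 2-fold from the mean of its 2 group mates, against at most 70 in any other library. The cadmium results at 24 h are therefore given with and without it, at least wherever it changed a call. Of the astrocyte markers, VIM had a median of 4408 CPM in non-treated cells, CD44 383 CPM and SOX9 73.1 CPM, whereas AQP4 and ALDH1L1 had no count in any library and GFAP and S100B were at most at 0.906 and 0.315 CPM.

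SRXN1, the sulfiredoxin gene (ENSG00000271303, chr20:646615-653200, minus strand, GRCh38), is treated as not measured, since it had no count in any library. In the GENCODE v44 annotation its last exon (chr20:646615-648917) is 2303 bases long, and 2292 of these bases (99.5%) are also an exon of ENSG00000270299 on the same strand. The authors counted reads in a mode that leaves out those overlapping more than 1 feature, and ENSG00000270299 had a count of 0 in all 60 libraries as well. They used GENCODE v43, in which the overlap was not checked here. No statement on the sulfiredoxin transcript follows from these zeros. Among the related genes described further on, TXNDC5 (with 2 counts over all 60 libraries), TXNDC12 (63 counts) and GPX1 (195 counts) also share most of their annotated 3′ ends with another gene. Over all protein-coding genes, 686 of 810 (84.7%) that shared at least 90% of the last 400 bases of every transcript with another gene on the same strand had no count, against 21.1% of the 18206 genes whose ends were not shared. None of the other 9 genes shared any of the last 400 bases of a transcript with another gene on its strand.

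**Figure D1:**
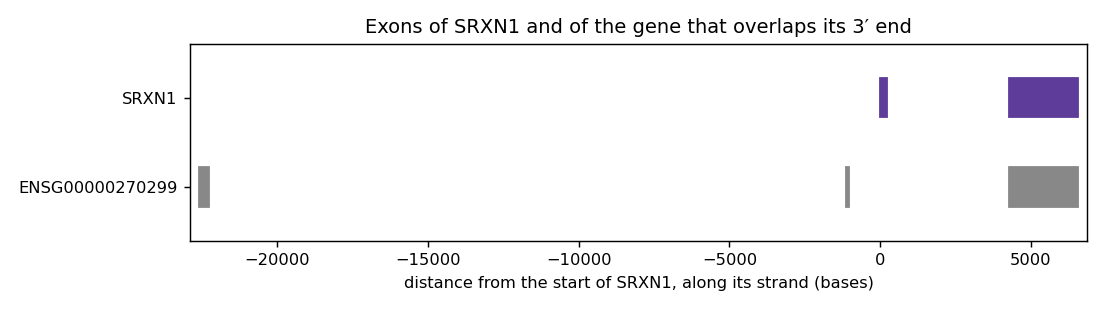
GENCODE v44 exons of SRXN1 and of ENSG00000270299, the gene on the same strand that overlaps it, by distance from the start of SRXN1 in bases. The last exon of SRXN1, where reads from the end of the transcript fall, coincides over 2292 of its 2303 bases with an exon of the other gene.

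Over the 5 time points and 9 genes, 45 tests were made per metal with edgeR's quasi-likelihood test, and a gene was called at a Benjamini-Hochberg adjusted p under 0.05 over all 12341 genes tested. Mercury gave 15 calls, 12 of them higher and 3 lower than in non-treated cells, spread over 7 genes. Arsenic gave 7 calls, 6 higher and 1 lower, over 6 genes, and cadmium gave 3 calls, 2 higher and 1 lower, over 3 genes. The share of all genes called at 24 h had the same order, with 27.8% for mercury, 14.3% for arsenic and 2.19% for cadmium. At 12 h these shares were 16%, 4.11% and 8.18%. The order of the metals is therefore not particular to these genes. PRDX2 and CAT were called in none of the 28 comparisons made here, which comprise 15 of a metal with non-treated cells, 9 between metals, 3 of effects between times and 1 of non-treated cells over time. The early calls were decreases of TXNIP and the late ones increases of the other genes. The genes were chosen with earlier results of these data known. Their counts beside the share of all genes are therefore descriptions and no test of the set.

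With arsenic, none of the 9 genes was called at 1.5 h, where 0.0729% of all genes were called, and none of the 9 was at an unadjusted p under 0.05 or called by DESeq2. At 3 h 1 of the 9 was called, TXNIP, against 0.138% of all genes. At 6 h none was called by edgeR or DESeq2, with 1 at an unadjusted p under 0.05, and 0.916% of all genes were called. At 12 h 1 of the 9 was called, PRDX1, against 4.11% of all genes. At 24 h 5 of the 9 were called against 14.3% of all genes, and all 5 were higher (TXN, PRDX1, PRDX6, GLRX and SOD1), where 6.54% of all genes were called higher and 7.75% lower. The median log2 fold change of the 9 genes at 24 h was 0.30, and that of all genes tested was 0.00041.

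With cadmium, none of the 9 genes and 0% of all genes were called at 1.5 h by edgeR. Of all genes 991 were at an unadjusted p under 0.05 at that time, none of the 9 among them, and DESeq2 called 4 genes, again none of the 9. At 3 h none of the 9 was called by edgeR or DESeq2, 3 were at an unadjusted p under 0.05, and 0.203% of all genes were called. At 6 h 1 of the 9 was called, TXNIP, against 2.05% of all genes, and at 12 h 2 were called, GLRX and SOD1, against 8.18%. At 24 h none was called by edgeR although 5 were at an unadjusted p under 0.05, DESeq2 called SOD2, and 2.19% of all genes were called, 1.56% higher and 0.632% lower. Without the third cadmium library at 24 h, TXN (log2 fold change 0.69, adjusted p = 0.0253) and SOD2 (0.47, adjusted p = 0.0339) were called higher by edgeR, and 1.93% of all genes were called. The median log2 fold change of the 9 genes at 24 h was 0.23, also without that library, and that of all genes was -0.0069.

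With mercury, TXNIP alone of the 9 genes was called at 1.5 h, where 0.567% of all genes were called, and at 3 h, where 1.55% were called. At 6 h 2 of the 9 were called, TXNIP lower and SOD1 higher, against 7.48% of all genes, and DESeq2 called PRDX1 as well. At 12 h 5 were called, all higher (TXN, PRDX1, GLRX, SOD1 and SOD2), against 16% of all genes. At 24 h 6 were called, all higher (the same 5 genes and PRDX6), against 27.8% of all genes, of which 13.9% were called higher and 13.9% lower. The median log2 fold change of the 9 genes at 24 h was 0.57, and that of all genes was -0.021.

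**Figure D2:**
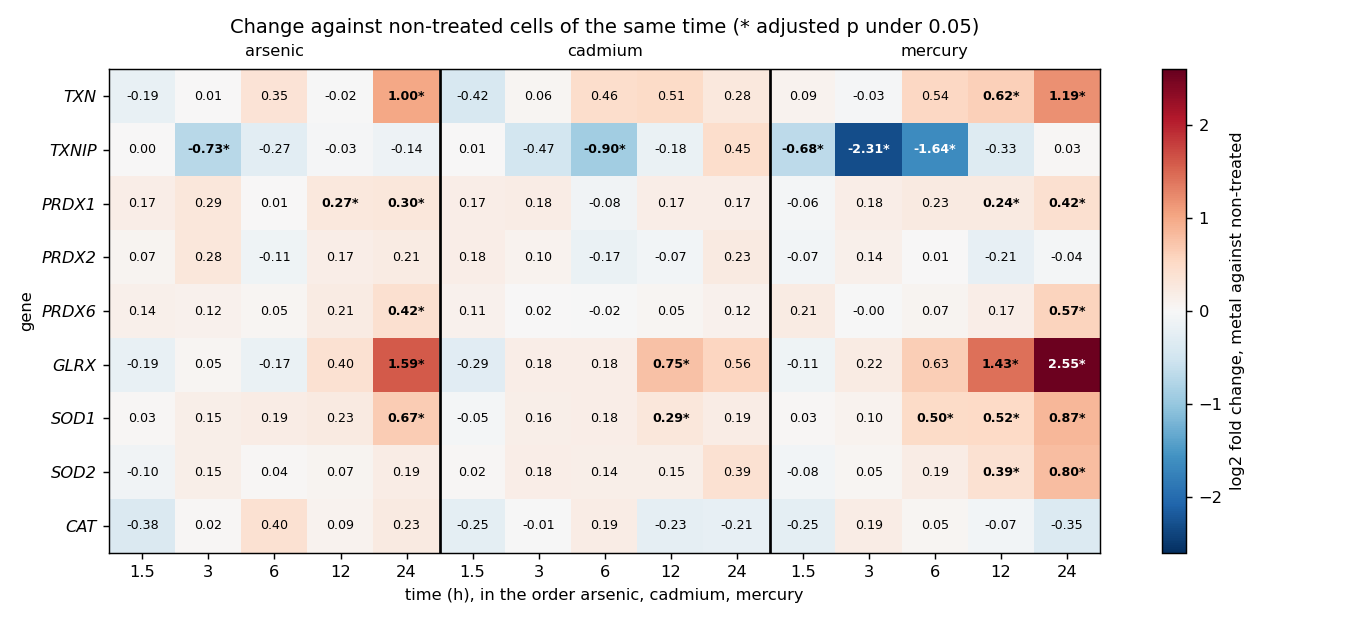
Log2 fold change of 9 genes (rows) against non-treated cells of the same time for arsenic, cadmium and mercury (blocks of columns, time in h), with red for higher and blue for lower levels and an asterisk at an adjusted p under 0.05 (edgeR). TXNIP carries all the called decreases, the lowest at -2.31 with mercury at 3 h, and GLRX the largest called increase, 2.55 with mercury at 24 h.

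TXNIP (ENSG00000265972, chr1:145992435-145996579, minus strand) encodes the thioredoxin-interacting protein and is among the genes known to respond to glucose through the MondoA and ChREBP factors, which act on paired E-box-like elements. The window of its promoter shown here, from the RefSeq promoter table (GRCh38.p14), lies at chr1:145996621-145996697 on the minus strand and holds such a pair, 2 CACGAG boxes in capitals between positions -88 and -72 from the start of transcription. The sequence is shown because TXNIP was the 1 measured gene of the set that was called lower.

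TXNIP promoter: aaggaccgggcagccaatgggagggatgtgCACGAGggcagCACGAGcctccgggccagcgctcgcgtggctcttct

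A search for 2 CACGNG boxes 5 bases apart on both strands of all 35116 promoters of 300 bases found it in 20 of them (0.057%), and in no other of the 7 genes with a promoter in the table (TXN, TXNIP, SRXN1, PRDX2, GLRX, SOD2 and CAT). The pattern was chosen after the sequence had been seen. A match describes letters and no binding.

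In non-treated cells, TXNIP was at 57.7, 50.6 and 50.1 CPM at 1.5 h and at 62.8, 64.4 and 64.4 CPM at 3 h. It then declined to 36.6, 43.5 and 41.6 CPM at 12 h and to 28.6, 32.6 and 25.1 CPM at 24 h. All libraries at 24 h lay under all libraries at 1.5 h, and the log2 fold change between these times was -0.88 ± 0.16 (SE; adjusted p = 0.000287, edgeR). TXNIP was the 1 gene of the 9 called in this comparison by edgeR and by DESeq2, in which 3.29% of all genes were called, so that each metal's TXNIP change stands against a control level that itself moved.

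With mercury, TXNIP was already lower at 1.5 h, with 29.95, 40.5 and 28.5 CPM (log2 fold change -0.68 ± 0.16, adjusted p = 0.0154, edgeR). At 3 h the 3 mercury libraries held 14.5, 10.3 and 13.9 CPM against 62.8, 64.4 and 64.4 CPM without metal, a log2 fold change of -2.31 ± 0.18 (adjusted p = 1.42e-16, edgeR). At 6 h they held 15.2, 22.9 and 21.6 CPM against 59.2, 54.5 and 73.2 CPM (-1.64 ± 0.17, adjusted p = 7.75e-12, edgeR). The groups did not overlap at any of these times. By 12 h TXNIP was at 38.1, 29.5 and 30.1 CPM with mercury, with a log2 fold change of -0.33, and by 24 h at 32.1, 24.2 and 32.1 CPM, with 0.03, and neither was called. The call at 1.5 h was lost when any of 3 libraries was left out (highest adjusted p = 0.245, without the third mercury library), whereas those at 3 and 6 h were kept without any single library.

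TXNIP was called once each for arsenic, at 3 h, and for cadmium, at 6 h, and the metals were not tested against each other at 3 h. At 3 h the arsenic libraries held 38.3, 38.9 and 38.3 CPM, below the 3 non-treated libraries (-0.73 ± 0.16, adjusted p = 0.0157, edgeR), and at 6 h they held 45.3, 59.1 and 51.1 CPM, overlapping them. With cadmium TXNIP was at 50.3, 50.7 and 36.9 CPM at 3 h, also below all non-treated libraries, without passing the test (-0.47 ± 0.15, adjusted p = 0.273, edgeR), and fell at 6 h to 30.7, 34.0 and 35.9 CPM (-0.90 ± 0.16, adjusted p = 0.000103, edgeR). The arsenic call at 3 h was lost when any 1 of the 6 libraries was left out, with log2 fold changes between -0.74 and -0.72 and adjusted p between 0.0528 and 0.118, while the cadmium call at 6 h was kept in all 6 such fits. At 24 h the cadmium libraries, at 36.8, 43.8 and 37.4 CPM, lay above the non-treated ones without passing the test (0.45 ± 0.16, adjusted p = 0.162, and 0.49 with adjusted p = 0.167 without the third cadmium library).

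**Figure D3:**
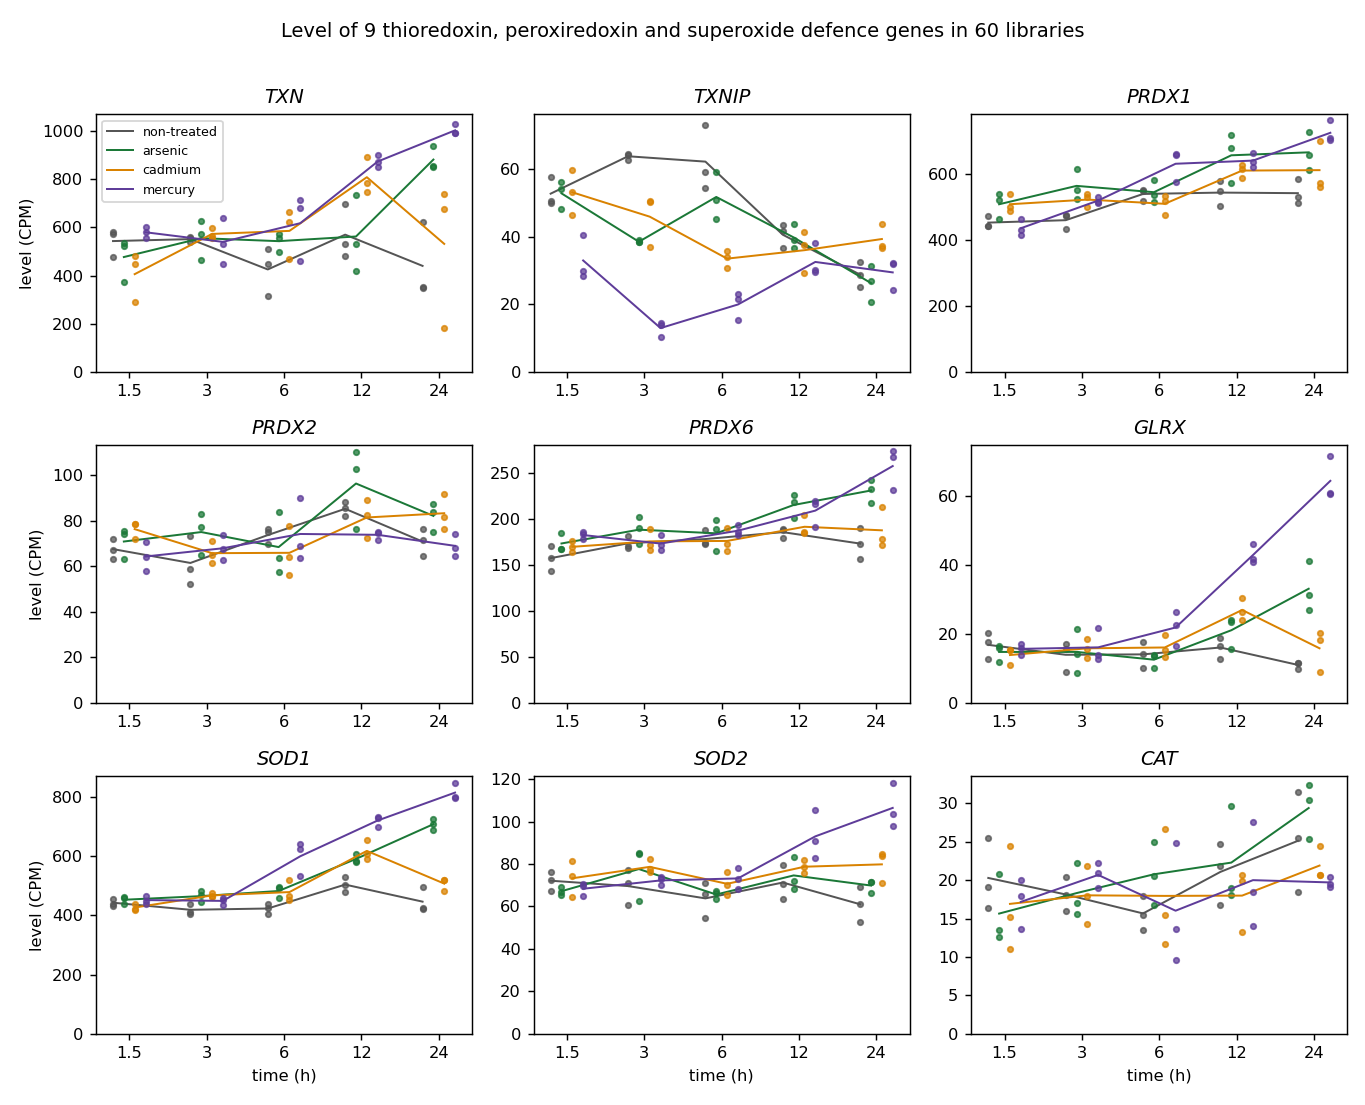
Level in CPM (vertical axis, from 0) of 9 genes against time in h (5 evenly spaced time points), with 1 point per library, 3 per group, and lines through the group means. The mercury libraries of TXNIP lie at 10.3 to 14.5 CPM at 3 h, under all non-treated libraries, and those of GLRX at 60.7 to 71.7 CPM at 24 h, above all others. The third cadmium library of TXN at 24 h lies at 181 CPM, apart from its mates.

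TXN (ENSG00000136810, chr9:110243810-110256507, minus strand), the cytosolic thioredoxin gene, rose late with mercury and arsenic. The mercury libraries held 851, 902 and 871 CPM at 12 h against 483, 699 and 529 CPM without metal (log2 fold change 0.62 ± 0.22, adjusted p = 0.0439, edgeR). At 24 h they held 1029, 991 and 992 CPM against 351, 348 and 622 CPM (1.19 ± 0.22, adjusted p = 2.16e-05, edgeR). The 3 non-treated libraries at 24 h were not close to each other, 1 of them lying at 622 CPM, and yet all 3 mercury libraries exceeded it. With arsenic the libraries held 852, 938 and 858 CPM at 24 h (1.004 ± 0.22, adjusted p = 0.00067, edgeR), and at 12 h they held 421, 533 and 734 CPM, on both sides of the non-treated libraries. Without the third non-treated library the fold changes at 24 h were 1.336 with arsenic and 1.52 with mercury, the highest of those obtained with 1 library left out, and both calls were kept in all such fits. The mercury call at 12 h was lost in 5 of 6 such fits and with DESeq2 (adjusted p = 0.105).

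The cadmium libraries of TXN at 24 h held 676, 738 and 181 CPM, the widest spread of any group of this gene, with a ratio of 4.07 between the highest and the lowest library. With all 3 libraries the log2 fold change was 0.28 ± 0.22 (adjusted p = 0.668, edgeR), and without the third it was 0.69 (adjusted p = 0.0253). At 12 h the cadmium libraries held 749, 784 and 895 CPM, all above the non-treated ones, without passing the test (0.51 ± 0.22, adjusted p = 0.157). The difference did pass with only the libraries compared in the fit (0.51, adjusted p = 0.00207, edgeR). It also passed without a filter on low counts (0.50, adjusted p = 9.71e-06, edgeR), so that this result depends on the setting. TXN varied within groups more than most genes: its standard deviation within groups was 0.35 on the log2 scale, and only 2.18% of the 7253 genes that averaged 50 counts or more had a larger one.

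GLRX (ENSG00000173221, chr5:95751319-95822726, minus strand), the cytosolic glutaredoxin gene, had the largest increases of the 9 genes. It was low at the start, with 17.5, 20.2 and 12.7 CPM in non-treated cells at 1.5 h, and its counts over all libraries ranged from 25 to 217. With mercury the libraries held 22.5, 16.6 and 26.5 CPM at 6 h, of which the lowest overlapped the non-treated ones (0.63 ± 0.26, adjusted p = 0.126). At 12 h they held 40.9, 41.8 and 46.1 CPM against 16.5, 18.8 and 12.8 CPM (log2 fold change 1.43 ± 0.24, adjusted p = 4.41e-06, edgeR). At 24 h they held 60.7, 61.1 and 71.7 CPM against 9.79, 11.7 and 11.5 CPM (2.55 ± 0.24, adjusted p = 1.68e-13, edgeR). Both groups were clear of the non-treated libraries, and both calls were kept without any single library.

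Arsenic raised GLRX at 24 h to 27.1, 41.1 and 31.2 CPM (1.59 ± 0.25, adjusted p = 1.34e-06, edgeR), between the mercury and the non-treated libraries. At 12 h the arsenic libraries, at 15.7, 23.6 and 23.9 CPM, still overlapped the non-treated ones. Cadmium raised it at 12 h to 26.3, 24.0 and 30.6 CPM (0.75 ± 0.25, adjusted p = 0.0437, edgeR), a call that was lost in 5 of 6 fits without 1 library and when library totals were used in place of TMM (adjusted p = 0.0744). At 24 h the cadmium libraries held 18.2, 20.3 and 8.98 CPM, the lowest of them being the library that stood apart, and GLRX was not called with it (0.56, adjusted p = 0.355) or without it (0.81, adjusted p = 0.111).

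The peroxiredoxin genes moved less. PRDX1 (ENSG00000117450, chr1:45510914-45542732, minus strand), which encodes a cytosolic peroxiredoxin that thioredoxin reduces, held 703, 709 and 765 CPM with mercury at 24 h against 530, 585 and 512 CPM without metal (log2 fold change 0.42 ± 0.085, adjusted p = 7.17e-05, edgeR). With arsenic it held 658, 729 and 611 CPM at that time (0.30 ± 0.085, adjusted p = 0.00999, edgeR), a call lost without the second arsenic library (adjusted p = 0.114) or the third non-treated one (adjusted p = 0.0541). All the libraries of both metals exceeded the non-treated ones at 24 h. At 12 h the calls were near the threshold, with 0.24 for mercury (adjusted p = 0.0439, edgeR) and 0.27 for arsenic (adjusted p = 0.0487, edgeR). The arsenic libraries at 12 h, at 681, 718 and 573 CPM, overlapped the non-treated ones, at 580, 504 and 548 CPM. Each of these calls at 12 h was lost in at least 4 of 6 fits without 1 library, and without a filter on low counts (adjusted p = 0.121 for arsenic and 0.13 for mercury, edgeR). With cadmium PRDX1 was called at none of the 5 times, and its log2 fold change at 24 h was 0.17 (adjusted p = 0.368), or 0.074 without the library that stood apart.

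PRDX6 (ENSG00000117592, chr1:173477330-173488815, plus strand), which encodes a peroxiredoxin with a single reactive cysteine, rose at 24 h. The mercury libraries held 267, 274 and 232 CPM against 156, 173 and 190 CPM (0.57 ± 0.089, adjusted p = 5.07e-07, edgeR), and the arsenic libraries 243, 218 and 233 CPM (0.42 ± 0.089, adjusted p = 0.000454, edgeR). Both groups were clear of the non-treated libraries, and both calls were kept without any single library. The cadmium libraries, at 213, 178 and 172 CPM, overlapped the non-treated ones (0.12, or 0.19 without the third library).

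PRDX2 (ENSG00000167815, chr19:12796820-12801800, minus strand), another cytosolic peroxiredoxin gene, lay between 52.2 and 110 CPM in the 60 libraries, with a median of 73.5 CPM. At 24 h it held 68.0, 64.8 and 74.3 CPM with mercury against 76.5, 71.6 and 64.6 CPM without metal, overlapping groups with a log2 difference of -0.04. Its largest difference between metals was at 12 h, where the arsenic libraries (110, 103 and 76.3 CPM) lay above the mercury ones (74.9, 71.6 and 75.2 CPM) without passing the test (0.38 ± 0.13, adjusted p = 0.0639, edgeR). The difference passed when library totals were used (adjusted p = 0.0359), with only genes averaging 50 counts or more (0.0434), with only the libraries compared in the fit (0.0486) and without the third arsenic library (0.53, adjusted p = 0.0097).

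SOD1 (ENSG00000142168, chr21:31659666-31668931, plus strand), the cytosolic copper and zinc superoxide dismutase gene, had the smallest spread within groups of the 9 genes, a standard deviation of 0.069 on the log2 scale, and 99.4% of the 7253 genes compared had a larger one. It was the first of the 9 genes to be called higher. With mercury it held 641, 626 and 533 CPM at 6 h against 424, 440 and 406 CPM (log2 fold change 0.50 ± 0.073, adjusted p = 3.29e-07, edgeR). At 12 h it held 700.2, 732 and 729 CPM against 531, 502 and 479 CPM (0.52 ± 0.072, adjusted p = 7.07e-08, edgeR), and at 24 h 848, 799 and 798 CPM against 421, 424 and 495 CPM (0.87 ± 0.072, adjusted p = 7.45e-16, edgeR). The groups did not overlap at any of the 3 times, and each call was kept without any single library.

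With arsenic SOD1 held 709, 726 and 690 CPM at 24 h (0.67 ± 0.072, adjusted p = 4.45e-11, edgeR), clear of the non-treated libraries. At 12 h all 3 arsenic libraries (581, 584 and 608 CPM) exceeded the non-treated ones, but the difference narrowly missed the threshold (0.23 ± 0.072, adjusted p = 0.0531, edgeR), and DESeq2 called it. With cadmium SOD1 held 653, 592 and 609 CPM at 12 h (0.29 ± 0.072, adjusted p = 0.00423, edgeR), a call lost without a filter on low counts (0.28, adjusted p = 0.0653). It held 521, 520 and 481 CPM at 24 h, where it overlapped the non-treated libraries (0.19 ± 0.072, adjusted p = 0.211, edgeR, and 0.23 with adjusted p = 0.14 without the third cadmium library).

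SOD2 (ENSG00000291237, chr6:159669069-159762529, minus strand), the mitochondrial manganese superoxide dismutase gene, rose with mercury at 12 and 24 h. The mercury libraries held 82.7, 106 and 90.9 CPM at 12 h against 63.8, 79.7 and 70.5 CPM (0.39 ± 0.12, adjusted p = 0.0152, edgeR). At 24 h they held 104, 118 and 97.8 CPM against 61.3, 52.6 and 69.3 CPM (0.80 ± 0.12, adjusted p = 1.33e-07, edgeR). Neither pair of groups overlapped, although the call at 12 h was lost without the second mercury library (adjusted p = 0.159) or the first non-treated one (adjusted p = 0.128), and without a filter on low counts (adjusted p = 0.0663). With arsenic at 24 h SOD2 held 71.6, 71.8 and 66.3 CPM (log2 difference 0.19). With cadmium it held 84.6, 83.9 and 71.1 CPM, above all non-treated libraries without passing the test (0.39 ± 0.12, adjusted p = 0.0663, edgeR). Without the third cadmium library the value was 0.47 (adjusted p = 0.0339), and without the third non-treated library 0.49 (adjusted p = 0.0295). On all libraries DESeq2 called it (0.40, adjusted p = 0.0411), as did edgeR on genes averaging 50 counts or more (adjusted p = 0.0432).

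CAT (ENSG00000121691, chr11:34438934-34472060, plus strand), the catalase gene, had between 30 and 113 counts per library and lay between 9.58 and 32.4 CPM. At 24 h it held 20.5, 19.5 and 19.2 CPM with mercury against 25.5, 18.4 and 31.5 CPM without metal (log2 fold change -0.35 ± 0.26), and 25.4, 30.4 and 32.4 CPM with arsenic (0.23 ± 0.25). Its standard deviation within groups was 0.35 on the log2 scale, as wide as that of TXN.

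The metals were then compared with each other, without the non-treated libraries, at 6, 12 and 24 h. At 6 h 7 calls were made, 3 of TXNIP, 2 of SOD1 and 1 each of GLRX and PRDX1. TXNIP was lower with cadmium than with arsenic (log2 difference of arsenic from cadmium 0.63 ± 0.16, adjusted p = 0.0252, edgeR) and lowest with mercury (1.37 ± 0.17 for arsenic over mercury, adjusted p = 1.23e-08, edgeR). This was the 1 gene of the 9 called between arsenic and cadmium at 6 h, against 1.18% of all genes. Between arsenic and mercury 3 were called (TXNIP, GLRX and SOD1) against 4.48%, and between cadmium and mercury 3 (TXNIP, PRDX1 and SOD1) against 3.78%. The difference of cadmium from mercury in TXNIP at 6 h was 0.74 ± 0.18 (adjusted p = 0.00577, edgeR). GLRX, PRDX1 and SOD1 were each lower with arsenic or cadmium than with mercury in these calls.

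Most of the calls at 6 h depended on single libraries or settings. That of TXNIP between arsenic and cadmium was lost in 4 of 6 fits without 1 library (adjusted p between 0.0628 and 0.253), that of GLRX in 5 of 6 (0.0853 to 0.208) and that of PRDX1 in 4 of 6 (0.052 to 0.135). SOD1 between arsenic and mercury was lost in 1 of 6 such fits (0.0572), as was TXNIP between cadmium and mercury (0.0954), both without the first mercury library. With only the libraries compared in the fit, 6 of the 7 calls were lost (0.062 to 0.193), and with library totals those of GLRX (0.0879) and PRDX1 (0.0607) and that of SOD1 between arsenic and mercury (0.0527). The difference of arsenic from mercury in TXNIP was kept throughout.

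At 12 h GLRX (-1.03 ± 0.23, adjusted p = 0.00169, edgeR) and SOD1 (-0.29 ± 0.072, adjusted p = 0.00625, edgeR) were lower with arsenic than with mercury, 2 calls of 9 against 6.84% of all genes, of which that of SOD1 was lost without a filter on low counts (adjusted p = 0.0706). Between arsenic and cadmium none of the 9 was called by edgeR or DESeq2, with 1 at an unadjusted p under 0.05 (TXN, -0.52, adjusted p = 0.168), against 5.77% of all genes. TXN did pass with only the libraries compared (-0.54, adjusted p = 0.00221, edgeR), without a filter (4.9e-06) and without the third arsenic library (0.0479). In the same settings TXN, not called above, was also lower with arsenic than with mercury (adjusted p = 2.76e-05, 1.94e-09 and 0.0161, edgeR). Between cadmium and mercury none was called by edgeR, with 3 at an unadjusted p under 0.05, against 3.29% of all genes, and DESeq2 called SOD1. With library totals edgeR called SOD1 too (-0.26, adjusted p = 0.0253), as it did on genes averaging 50 counts or more (0.0274). With only the libraries compared it called GLRX (-0.67, adjusted p = 0.0104).

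At 24 h cadmium stood below mercury in 6 of the 9 genes, against 20% of all genes called. GLRX differed most (-2.00 ± 0.23, adjusted p = 3.94e-10, edgeR), followed by TXN (-0.91 ± 0.22, adjusted p = 0.00155, edgeR) and SOD1 (-0.68 ± 0.072, adjusted p = 1.88e-11, edgeR). The other 3 genes called were PRDX6 (-0.45), SOD2 (-0.41) and PRDX1 (-0.25). Without the third cadmium library, which left 13.6% of all genes called, TXN (-0.51, adjusted p = 0.0542) and SOD2 (-0.35, adjusted p = 0.0598) were no longer called and the other 4 were. SOD2 was also lost without the second mercury library (adjusted p = 0.0729). PRDX1 was lost in 3 of 6 fits without 1 library (adjusted p between 0.123 and 0.169), without a filter (0.0646) and with only the libraries compared (0.128).

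Between arsenic and cadmium 5 of the 9 genes were called at 24 h, against 10.2% of all genes. GLRX (1.04 ± 0.24, adjusted p = 0.00145, edgeR), TXN (0.72), SOD1 (0.48) and PRDX6 (0.30) were higher with arsenic, and TXNIP was lower (-0.59 ± 0.17, adjusted p = 0.0135, edgeR). Without the third cadmium library, which left 6.7% of all genes called, TXN (0.32, adjusted p = 0.357) and PRDX6 (0.24, adjusted p = 0.144) were lost and GLRX, SOD1 and TXNIP were kept. TXN was also lost with DESeq2 (adjusted p = 0.0647), with only the libraries compared (0.167) and without the second arsenic library (0.0837). PRDX6 was lost in 4 of 6 fits without 1 library, the third cadmium one included, without a filter (0.131) and with only the libraries compared (0.159). TXNIP was lost with only the libraries compared (0.1) and without the second arsenic (0.153) or second cadmium library (0.0735). Between arsenic and mercury GLRX (-0.96 ± 0.22, adjusted p = 0.00124, edgeR) and SOD2 (-0.61 ± 0.12, adjusted p = 0.000122, edgeR) were lower with arsenic, 2 calls of 9 against 11.4% of all genes. DESeq2 called SOD1 too (-0.21, adjusted p = 0.0103), as did edgeR with relative log expression (RLE) factors in place of TMM (0.0395) or on genes averaging 50 counts or more (0.0226). TXN did not pass the test between these 2 metals (-0.19, 95% interval -0.61 to 0.24), nor did PRDX1 (-0.12, 95% interval -0.29 to 0.042).

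**Figure D4:**
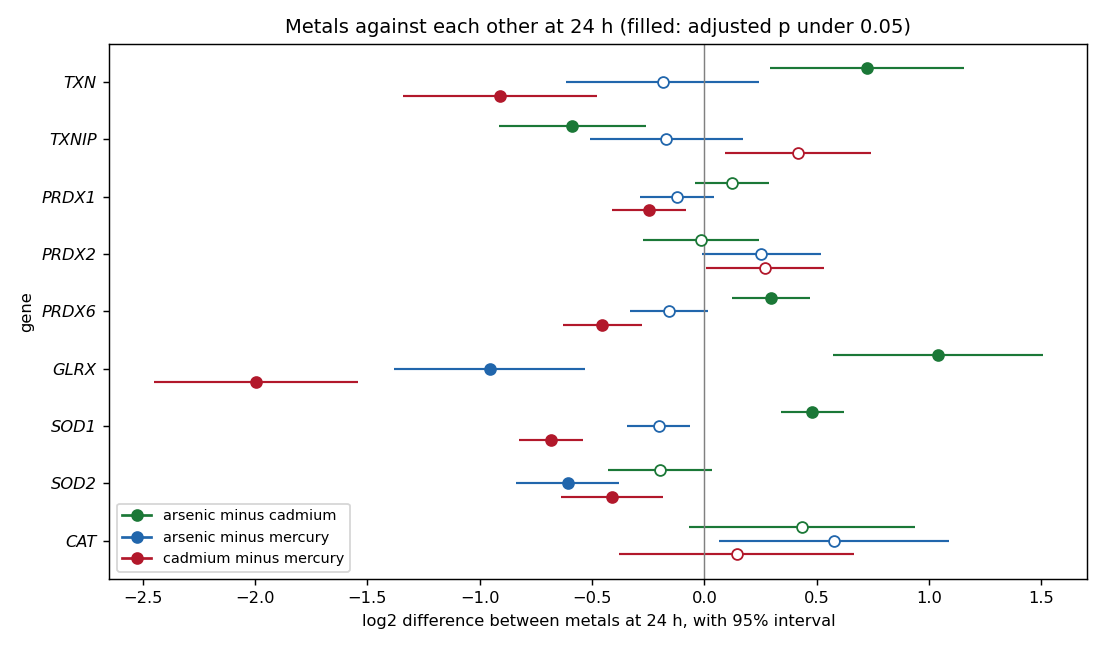
Log2 difference between metals at 24 h for 9 genes, with 95% intervals from the standard error, filled at an adjusted p under 0.05 (edgeR, all libraries). Cadmium minus mercury is filled in 6 genes, all to the left of 0, with GLRX at -2.00, and arsenic minus mercury is filled for GLRX and SOD2.

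Whether an effect grew between 12 and 24 h was tested as the difference of the 2 effects, each against its own non-treated libraries. For arsenic 1 of the 9 genes was called, SOD1 (difference 0.44 ± 0.10, adjusted p = 0.0136, edgeR), against 1.57% of all genes, a call lost in 3 of 12 fits without 1 library, without a filter (adjusted p = 0.0882) and with only the libraries compared (0.0876). TXN (1.02, adjusted p = 0.0715) and GLRX (1.197, adjusted p = 0.0574) missed the threshold with larger differences and wider errors, and DESeq2 called GLRX (adjusted p = 0.039). For mercury none was called by edgeR, with 4 at an unadjusted p under 0.05, against 0.624% of all genes, and DESeq2 called SOD1. For cadmium none was called by edgeR or DESeq2, with 1 at an unadjusted p under 0.05, against 0.381% of all genes, and without the third cadmium library none was called and 0.194% of all genes were.

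The other genes of these pathways were taken from 6 lists holding 79 genes, of which 62 were tested, and are given by their counts at 24 h, when each metal was compared with the same non-treated libraries. In the arsenic comparison 28 of the 62 (45.2%) were called (22 higher, 6 lower) against 14.3% of all genes. In that of cadmium 11 (17.7%) were called (9 higher, 2 lower) against 2.19%, and in that of mercury 30 (48.4%; 22 higher, 8 lower) against 27.8%. Without the third cadmium library 8 were called for cadmium, all of them higher, against 1.93% of all genes. The lists, too, were chosen with earlier results of these data known, so that their shares beside those of all genes are descriptions only.

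The nearest partner of TXN is TXNRD1, the cytosolic thioredoxin reductase, which rose with all 3 metals. Its log2 fold change with mercury was 0.74 at 3 h (adjusted p = 0.000894, edgeR) and 2.23 at 24 h (609 ± 54.1 CPM against 130 ± 24.7, SD, n = 3, adjusted p = 8.99e-20, edgeR). With arsenic it was first called at 6 h (0.70, adjusted p = 0.00492, edgeR) and reached 2.01 at 24 h. With cadmium it was 1.51 at 12 h (adjusted p = 2.2e-12, edgeR) and 0.66 at 24 h (adjusted p = 0.00514, edgeR), or 0.82 without the third library (adjusted p = 0.00031). TXN2, the mitochondrial thioredoxin, was lower with mercury at 24 h (-0.52, adjusted p = 0.000999, edgeR) and called in no other of the 15 comparisons with non-treated cells. Of the 16 tested genes of the thioredoxin system list, these 2 included, arsenic gave 3 higher and 1 lower, cadmium 1 higher (TXNRD1), and mercury 3 higher and 3 lower. In that order 25%, 6.25% and 37.5% of the list were called, against 14.3%, 2.19% and 27.8% of all genes.

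Of 14 tested genes of peroxide and disulfide repair, arsenic gave 2 higher and 1 lower, cadmium 1 higher, and mercury 3 higher and 1 lower. The shares were 21.4% for arsenic against 14.3% of all genes and 7.14% for cadmium against 2.19%. For mercury the share was 28.6%, near the 27.8% of all genes. SESN2, a stress-induced sestrin, was higher with all 3 (log2 fold change 2.39, 1.37 and 2.78 in the order arsenic, cadmium, mercury, and 1.25 for cadmium without the third library), and GPX4, which reduces lipid peroxides, was lower with arsenic (-0.68) and mercury (-0.85). The mitochondrial and secretory-pathway peroxiredoxins PRDX3, PRDX4 and PRDX5 were called in none of the 15 comparisons of a metal with non-treated cells.

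Of the 3 tested genes of superoxide sources and removal, SOD3, the extracellular superoxide dismutase, was lower with arsenic (-0.96, adjusted p = 0.0496, edgeR) and mercury (-1.17, adjusted p = 0.00888, edgeR). CCS, the chaperone that delivers copper to SOD1, was lower with mercury at 24 h (2.56 ± 0.723 CPM against 11.2 ± 4.08 CPM, SD, n = 3, log2 fold change -2.12, adjusted p = 2.05e-05, edgeR), at the time when SOD1 itself was higher. With cadmium CCS was at the edge of the threshold (-1.21), and it was not called without the third cadmium library (-1.27, adjusted p = 0.0878). The arsenic call of SOD3 was also near the threshold, and SOD3 and CCS had at most 44 and 50 counts in any library. With all libraries, 33.3%, 33.3% and 66.7% of this list were called with arsenic, cadmium and mercury, against 14.3%, 2.19% and 27.8% of all genes.

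Of the 18 genes of the NRF2 pathway, the main inducible antioxidant programme, arsenic gave 17 higher, cadmium 7 and mercury 15, and none was lower at the threshold. In that order this is 94.4%, 38.9% and 83.3% of the list, against 14.3%, 2.19% and 27.8% of all genes. With cadmium 6 were higher when the third library was left out. HMOX1, heme oxygenase 1, led with each metal (log2 fold change 7.55, 4.79 and 7.21), and FTH1, ferritin heavy chain, rose by 1.78, 0.88 and 1.88. The cadmium values were 4.63 and 0.95 without the third library. The median of the list was 1.1 with arsenic, 0.34 for cadmium (0.44 without that library) and 1.26 for mercury, beside medians of 0.30, 0.23 and 0.57 for the 9 genes described here. Of the 4 tested relatives and regulators of TXNIP, 1 was called, ARRDC2, higher with mercury (1.51, adjusted p = 1.39e-05, edgeR). With mercury that is 25% of this list, near the 27.8% of all genes. Of the 7 tested NF-kB targets, a set to which SOD2 is often counted, none was higher, and 3, 1 and 2 were lower with arsenic, cadmium and mercury, BIRC3 by -1.64 with arsenic and -1.42 with mercury. For arsenic that is 42.9% of the list against 14.3% of all genes, for cadmium 14.3% against 2.19%, and for mercury 28.6%, near the 27.8% of all genes. The cadmium call, NFKBIA (-0.33, adjusted p = 0.049, edgeR), was lost without the third cadmium library (adjusted p = 0.103).

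The 7 genes held in the RefSeq table had 11 promoters there, which were searched for short binding motifs on both strands. None held the antioxidant response element core TGACNNNGC, which 13.3% of all promoters held, the AP-1 motif TGACTCA (4.95%), the CRE motif TGACGTCA (1.85%), a heat-shock motif (GAANNTTC or TTCNNGAA, 13.5%) or the E-box CACGTG (7.26%). For the motifs that follow, a gene is named if any of its promoters held the motif. The percentages are of single promoters, so that a count of genes cannot be set against them. The metal response element core (TGCACNC or TGCGCNC, 29.6%) was in those of TXN, TXNIP, SRXN1, PRDX2 and SOD2. An NF-kB motif, GGGA and CC with 4 bases of any kind between them (25.6%), was in those of GLRX, SOD2 and SRXN1. The windows of GLRX (chr5:95822729-95822798, minus strand) and SOD2 (chr6:159762436-159762505, minus strand), the measured genes that held this motif, are shown with it in capitals. Both were called higher with mercury. TXN was also called higher with mercury and held no such motif, and PRDX1, PRDX6 and SOD1, called higher too, had no promoter in the table.

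GLRX promoter: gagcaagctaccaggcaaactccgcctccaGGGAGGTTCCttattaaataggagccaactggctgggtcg
SOD2 promoter: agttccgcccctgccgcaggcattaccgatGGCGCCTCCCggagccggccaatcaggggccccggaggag

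In SOD2 the motif reads on the other strand. These windows are too short to speak of distant elements, and the presence or absence of letters says nothing of which factor was bound.

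Across the 20 group means, on the log2 CPM scale, GLRX and SOD1 followed each other most closely among the 9 genes (r = 0.94), then PRDX6 and SOD1 (r = 0.90) and TXN and GLRX (r = 0.90). TXNIP correlated negatively with each of the other 8, with r between -0.40 and -0.058. These values describe 20 groups that share libraries' depth and the course of time in culture. Among 7244 other genes that averaged 50 counts or more, those most like TXN were IARS1 (r = 0.95), COA6 (r = 0.94) and CTSL (r = 0.93), those most like SOD2 were MRPL18, GSTO1 and VDAC2 (r between 0.86 and 0.87), and those most like TXNIP were HJURP, CYREN and NVL (r between 0.71 and 0.78).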

How the data were processed

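The deposited counts of reads per gene were made by the authors, who sequenced QuantSeq 3′ mRNA libraries, aligned them with STAR 2.7.9a to GRCh38 and counted reads in GENCODE exons on the sense strand with GenomicAlignments in its union mode. Reads over exons of more than 1 gene are lost in that mode. From these counts, genes were filtered with filterByExpr (minimum count 10, minimum total 15), which kept 12341 of 28620 genes with a count. All 60 libraries entered 1 fit with a coefficient per treatment and time in edgeR 4.0.16 (R 4.3.3, TMM factors, quasi-likelihood F-test), with Benjamini-Hochberg adjustment within each comparison. Errors of log2 fold changes are the fold change divided by the square root of F. The fit was tested on simulated data. DESeq2 1.42.0, other size factors and filters, a replicate block and leaving out each library were alternatives. The 92 spike-in rows held no counts and were left out. GENCODE v44, whose coordinates of the 10 genes equal those in the counts table, and the RefSeq promoter table were used for annotation. The rule was to follow all 10 genes in every comparison, of which the text names those called and gives the rest by counts, and of the related lists the closest partners and at most 3 called genes per list and metal with the smallest adjusted p. The genes and lists were chosen with earlier results of these data known.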

Additional observations from a re-analysis of the deposited data

Results flagged for a closer look

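The arsenic effect on SOD1 differed between times: it was larger at 24 h than at 12 h by 0.4365 on the log2 scale (SE 0.10, adjusted p = 0.0136, edgeR, tested as the difference of the 2 effects). The arsenic libraries held 581, 584 and 608 CPM at 12 h and 709, 726 and 690 CPM at 24 h, and the non-treated ones 531, 502 and 479 CPM and 421, 424 and 495 CPM. The mean of the non-treated libraries was 504 CPM at 12 h and 446 CPM at 24 h. These 2 groups overlapped, and the difference between them was not tested. The call was lost in 3 of 12 fits without 1 library, with a highest adjusted p of 0.0582 without the first non-treated library at 24 h. It was also lost without a filter on low counts (adjusted p = 0.0882) and with only the libraries compared in the fit (adjusted p = 0.0876).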

How the results depend on the processing

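Members called for cadmium numbered 3, against 5 without a filter or with only the libraries compared in the fit, and 2 to 6 when 1 library was left out, 6 of them without the third cadmium library at 24 h. Between arsenic and cadmium 6 calls became 3 with only the libraries compared. For the arsenic effect at 24 against 12 h, 1 call became 2 with DESeq2 or a mean of at least 50 counts (SOD1 and GLRX) and 2 without a filter (TXN and GLRX, SOD1 being lost), and 0 to 3 without 1 library (3 without the third arsenic library at 12 h). For mercury 0 became 1 with DESeq2, without a filter, with a mean of at least 50 counts or with only the libraries compared, and 0 to 1 without 1 library. In non-treated cells over time 1 became 2 with a mean of at least 50 counts, and 1 to 2 without 1 library (2 without the third non-treated library at 24 h). Related genes called for cadmium at 24 h fell from 11 to 5 with only the libraries compared and to between 6 and 9 without 1 library. The cause of these shifts was not tested. The other counts stayed within 1.5 times, and no call changed its sign under any alternative run. Of the 49 called results of single genes, 12 were lost with only the libraries compared, 8 without a filter, 6 with library totals and 2 with DESeq2. Calls were also gained: 9, 10, 3 and 7 in the same order, and 8 with a mean of at least 50 counts. Among them TXN was lower with cadmium at 1.5 h with only the libraries compared (-0.44, adjusted p = 0.0136, edgeR) and without a filter (-0.43, 0.00335). Without a filter it was higher at 6 h with arsenic (0.36), cadmium (0.46) and mercury (0.56). Without a filter the adjusted p of TXN with arsenic at 24 h was 1.73e-24 in place of 0.00067 (edgeR).

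Libraries of a metal and of non-treated cells with the same time and number did not deviate together from their group means (median correlation -0.0080, 0 of 45 pairs over 0.1). Counting noise in genes with few counts lowers such correlations. Whether these libraries share a culture or batch cannot be told from them. With a replicate block, the arsenic calls numbered 6 in place of 7, PRDX1 at 12 h being lost (adjusted p = 0.0504, edgeR), and the other calls of the 9 genes in all 28 comparisons were kept. GLRX and CAT, with as few as 25 and 30 counts per library, are the genes that depth limits most.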

Other observations

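TXN and GLRX, the 2 called genes with the widest spread within groups, were both lowest in the third cadmium library at 24 h among the 3 of that group, with log2 differences of -1.96 for TXN and -1.05 for GLRX from the mean of the other 2 libraries. PRDX1 was 0.31 above that mean in the same library. What sets this library apart was not tested.

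TXN varied between libraries of other groups too. In non-treated cells at 6 h it held 316, 513 and 448 CPM and at 12 h 483, 699 and 529 CPM, whereas SOD1 held 424, 440 and 406 CPM and 531, 502 and 479 CPM in the same libraries. Processed copies of TXN took up few counts: 7 copies in the table held 669 counts over all libraries, 0.566% of those of TXN.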
